A study of Homo sapiens with 6 samples.

Results

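Apolipoproteins are the proteins that coat lipid particles in plasma, and 10 of their genes are described here in HuH7, a cell line from a human hepatoma, after depletion of the long noncoding RNA EGOT. The genes were APOA1, APOA2, APOA4, APOA5, APOB, APOC3, APOE, APOF, APOH and APOM, chosen by symbol from the platform annotation, and they are 10 of 14812 genes with a symbol on the array. Of several probe sets of a gene the brightest on average was used, which concerned APOM alone. The 3 EGOT gapmer arrays and the 3 control gapmer arrays both came from cells transfected in addition with a PKR plasmid and poly I:C. PKR is a kinase that double-stranded RNA switches on, and poly I:C is a man-made RNA of that kind. Each well was given 50 pmol of gapmer, and RNA was taken 36 hours later. A gapmer is a short antisense oligonucleotide that directs RNase H to a complementary RNA. Each group rests on 1 gapmer in 1 cell line, no cells without PKR and poly I:C are in the comparison, and the labels do not say whether replicates were separate cultures, so the spread behind each p-value is that between these samples and may be technical. The sequences that the labels give for the gapmers, printed because they are all that separates the groups, are these.
EGOT gapmer: agagacacttagaaga
control gapmer: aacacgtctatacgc

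Hepatocytes secrete most plasma apolipoproteins. APOB is the structural protein around which very-low-density lipoprotein is built in the endoplasmic reticulum, whereas the small exchangeable apolipoproteins move between particles, activate or inhibit the enzymes that act on them and serve as ligands for receptors. APOA1 and APOA2 are the main proteins of high-density lipoprotein (HDL), and in humans APOA4 is made mainly by the intestine.

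All values are on the log2 scale of the authors' RMA, so a difference of 1 is 2-fold, and levels of different genes cannot be set against each other because each is read by its own probes. Correlations over all probe sets were 0.987 to 0.989 within the EGOT gapmer arrays, 0.991 to 0.992 within the control gapmer arrays and 0.985 to 0.988 between them. EGOT gapmer replicate 2 had the highest median over all probe sets, 5.23, where the other arrays had 5.08 to 5.15. EGOT itself read 4.91, 4.90 and 4.69 with the EGOT gapmer, against 6.29, 6.79 and 6.71 with the control gapmer, a log2 difference of -1.76 (limma adjusted p = 0.0076; two-sided exact permutation p = 0.1, the smallest that 3 arrays against 3 can give). Its EGOT gapmer values lay below the median of every array, where background compresses differences, so the depletion may be larger than this difference. Hepatocyte markers were bright on every array: 10 of 15 listed hepatocyte markers were measured and their mean log2 level was 11.62 to 11.63 with the EGOT gapmer and 11.55 to 11.57 with the control gapmer.

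With the EGOT gapmer 2 of the 10 apolipoprotein genes rose, APOA4 by 0.85 and APOA1 by 0.36 on the log2 scale, and 0 fell. In RNA from whole cultures, a change in how many cells express a gene and one in RNA per cell cannot be told apart. Over all genes tested 8.41% passed the same threshold (limma, Benjamini-Hochberg adjusted p under 0.05), 5.2% higher and 3.21% lower. The 3 EGOT gapmer values lay above all 3 control gapmer values in 5 of the 10 genes (APOA1, APOA4, APOE, APOH and APOM) and below them in 1 (APOB). Among all genes 20.2% were separated upward and 11.5% downward. At an unadjusted p under 0.05 (limma) there were 6 of the 10, against 25% of all genes. After a second quantile normalization, cyclic loess or centring of arrays on their medians there were 4, as APOE and APOM dropped out. The count over all 14812 genes was 3708 to 3785 in these settings. As deposited, the difference was above 0 in 7 of the 10, against 57.8% of all genes. The median log2 difference of the 10 was 0.172, and that of all genes was 0.0372.

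**Figure D1:**
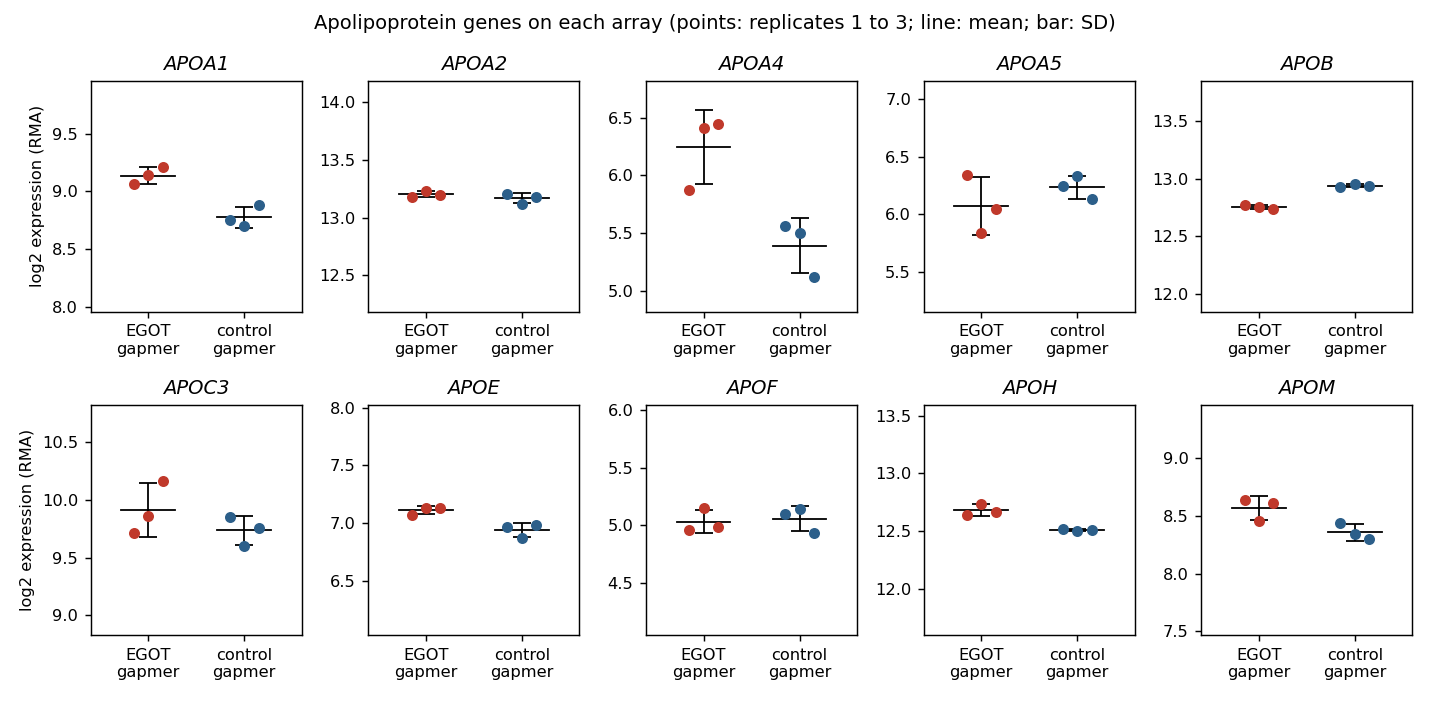
Log2 expression (vertical axes, each spanning 2 log2 units) of the 10 apolipoprotein genes on the 3 EGOT gapmer arrays (red, left) and the 3 control gapmer arrays (blue, right), with group mean and SD. APOA4 shows the widest gap between groups, and the values of APOA2, APOA5, APOC3 and APOF overlap.

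**Figure D2:**
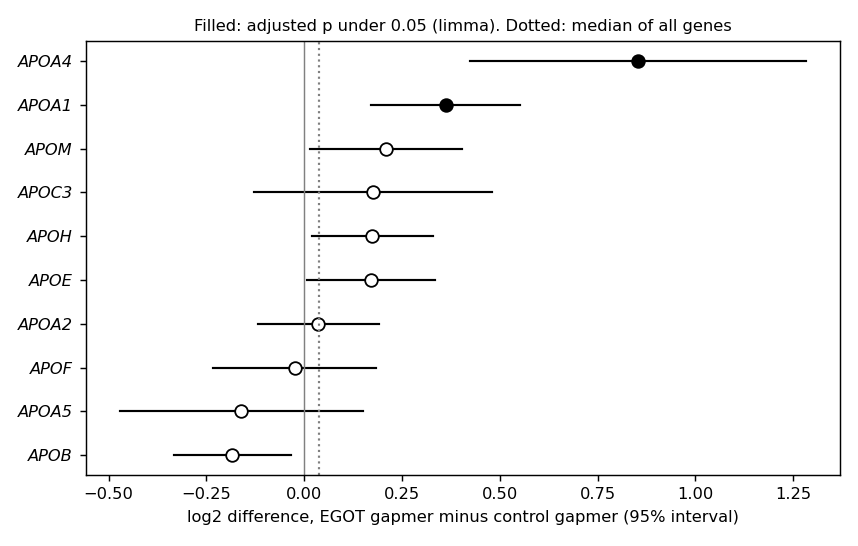
Log2 differences (EGOT gapmer minus control gapmer, horizontal axis) with 95% intervals for the 10 genes. APOA4 and APOA1 are filled because their limma adjusted p was under 0.05, and the dotted line is the median of all genes, 0.0372.

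APOA4, a component of chylomicrons and HDL, had the widest difference of the 10. Its probe set (16744717) read 5.88, 6.41 and 6.45 with the EGOT gapmer, against 5.56, 5.50 and 5.12 with the control gapmer. The groups did not overlap, although EGOT gapmer replicate 1 was lower than the rest of its group and control gapmer replicate 3 lay below its group. The level averaged 6.25 ± 0.319 with the EGOT gapmer and 5.39 ± 0.240 with the control gapmer (SD, n = 3 each), the widest SDs among the 10 genes in both groups. The log2 difference of 0.85 had a standard error of 0.183 and a 95% interval of 0.42 to 1.28, which is 1.81-fold (limma adjusted p = 0.0364). The gene was dim: its value exceeded between 49.9% and 72.7% of probe sets, depending on the array. Leaving out 1 array ended the call in 5 of 6 cases, with differences of 0.72 to 0.94, and it held only without EGOT gapmer replicate 1, at 1.04 (limma adjusted p = 0.0358).

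APOA4 belongs to a cluster on chromosome 11 in which the annotated order of the measured genes is BUD13, ZPR1, APOA5, APOA4, APOC3, APOA1 and SIK3. RefSeq promoter windows of 300 bases, from 250 before the annotated start to 50 after it, were on hand for 6 of the 10 genes. Those of APOA4, which rose, and of its neighbour APOA5, which did not pass, are printed on the gene's own strand. The table holds a second APOA5 window with another annotated start, which is not printed. Capitals mark exact matches on either strand to AGGTCA (an element read by nuclear receptors), AGTCCA (an element typical of HNF4, a hepatocyte nuclear receptor), TGTTTAC (FOXA), TATAAA and CCAAT.
APOA4, chr11:116823255-116823554, GRCh38.p14, minus strand: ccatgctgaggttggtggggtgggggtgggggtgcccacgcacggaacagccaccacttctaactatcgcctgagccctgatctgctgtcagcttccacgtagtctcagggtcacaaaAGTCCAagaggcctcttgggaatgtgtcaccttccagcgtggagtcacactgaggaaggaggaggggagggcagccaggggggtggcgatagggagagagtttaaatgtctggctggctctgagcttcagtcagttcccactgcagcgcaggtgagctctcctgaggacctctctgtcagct
APOA5, chr11:116792371-116792670, GRCh38.p14, minus strand: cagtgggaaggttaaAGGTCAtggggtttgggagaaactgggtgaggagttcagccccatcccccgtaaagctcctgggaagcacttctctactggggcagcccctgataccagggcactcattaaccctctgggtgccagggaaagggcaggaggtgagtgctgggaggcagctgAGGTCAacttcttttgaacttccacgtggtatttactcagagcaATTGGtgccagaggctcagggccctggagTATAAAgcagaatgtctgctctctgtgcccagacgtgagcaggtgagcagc

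The APOA4 window held 1 match, AGTCCA at position -132 from the annotated start. That motif was present in 11.8% of all 35116 promoter windows in the table. The printed APOA5 window held 4 matches, AGGTCA at -235 and at -74, CCAAT on the opposite strand at -30 and TATAAA at -1, and its second window held 1, AGGTCA at -156. Over all windows AGGTCA was present in 13.8%, CCAAT in 34.6% and TATAAA in 11.5%. These matches describe letters only, and no binding was measured.

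APOA1, the main protein of HDL and the activator of the cholesterol-esterifying enzyme LCAT, rose by less than APOA4 but with tighter replicates. Its probe set (16744723) read 9.06, 9.14 and 9.21 with the EGOT gapmer, against 8.75, 8.70 and 8.88 with the control gapmer, so the groups did not overlap. The means were 9.14 ± 0.0758 and 8.77 ± 0.0918 in EGOT gapmer and control gapmer arrays (SD, n = 3 each). The log2 difference of 0.36 had a standard error of 0.0807 and a 95% interval of 0.17 to 0.55, or 1.28-fold (limma adjusted p = 0.0406). APOA1 no longer passed when any 1 of the 6 arrays was left out, with differences of 0.32 to 0.41, nor after a second quantile normalization (0.31, limma adjusted p = 0.0527) or cyclic loess (0.31, limma adjusted p = 0.0513).

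The other genes of the cluster did not pass. APOC3, an inhibitor of lipoprotein lipase that lies between APOA4 and APOA1, read 9.72, 9.86 and 10.17 with the EGOT gapmer, against 9.86, 9.60 and 9.76 with the control gapmer. The groups overlapped, with EGOT gapmer replicate 3 alone above all control gapmer arrays by a clear margin, and the difference was 0.18 with a 95% interval of -0.13 to 0.48 (limma adjusted p = 0.464). APOA5, which promotes triglyceride clearance by lipoprotein lipase, read 6.34, 5.84 and 6.05 with the EGOT gapmer, against 6.25, 6.33 and 6.13 with the control gapmer. Its difference was -0.16 with a 95% interval of -0.47 to 0.15 (limma adjusted p = 0.515), and its highest and lowest values were both EGOT gapmer arrays. Of the flanking genes, ZPR1, which encodes a zinc finger protein and adjoins APOA5, rose by 0.30 (limma adjusted p = 0.0492), and SIK3, a salt-inducible kinase gene that adjoins APOA1, fell by 0.66 (limma adjusted p = 0.0102). SIK3 read 7.53, 7.46 and 7.60 with the EGOT gapmer, against 8.17, 8.14 and 8.26 with the control gapmer. Of 11 measured genes in the list of neighbours, 1 rose and 2 fell, the other fall being CADM1, a cell adhesion gene farther away, at -0.44 (limma adjusted p = 0.0479). Over all genes 5.2% rose and 3.21% fell. The ZPR1 call held in 4 of 17 alternatives, that of CADM1 in 6 and that of SIK3 in 13.

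**Figure D3:**
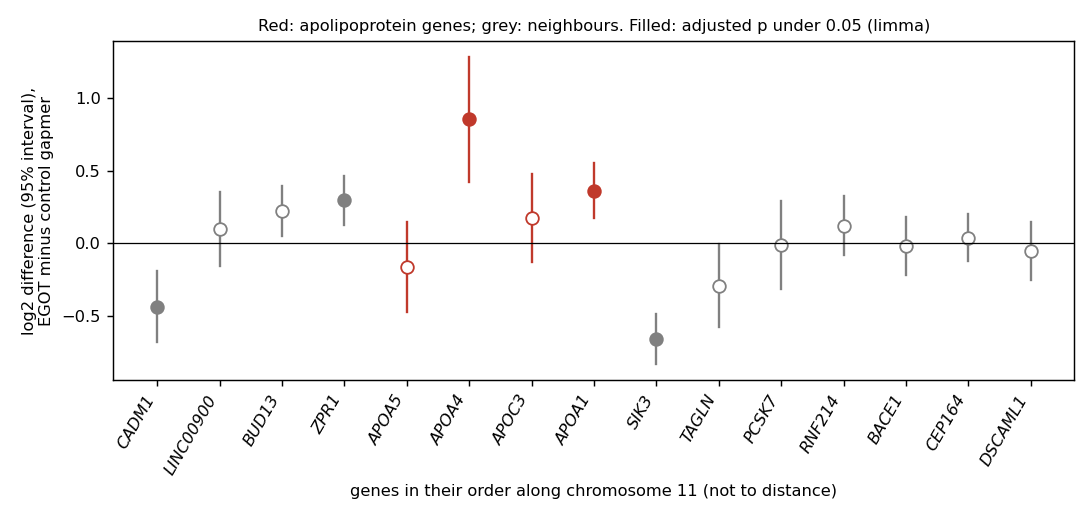
Log2 differences with 95% intervals (vertical axis, EGOT gapmer minus control gapmer) for the measured genes of the chromosome 11 cluster and its neighbours, in their annotated order. Filled points passed the limma threshold: APOA4, APOA1 and ZPR1 above 0, SIK3 and CADM1 below 0.

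Genes with long spans were lower across the whole array, and SIK3 and CADM1 are such genes. The median log2 difference was -0.0847 over 2254 genes spanning 100 kb or more, of which 12.5% fell and 0.843% rose, and 0.0661 over 4924 genes spanning under 10 kb. Among the 10 apolipoprotein genes 8 span under 10 kb, APOH 10 to 20 kb and APOB 20 to 50 kb. With the trend on span removed neither passed: the log2 difference of APOA4 was 0.81 (limma adjusted p = 0.0561), and for APOA1 it was 0.33 (limma adjusted p = 0.0722). With that trend removed SIK3 still passed (limma adjusted p = 0.0248) and CADM1 did not (limma adjusted p = 0.196). The part of the span trend in these results was not tested further.

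APOB, the structural protein of very-low-density and low-density lipoprotein, was the 1 gene of the 10 whose EGOT gapmer values all lay below the control gapmer values. Its probe set read 12.77, 12.76 and 12.73 with the EGOT gapmer, against 12.92, 12.95 and 12.94 with the control gapmer. The SDs, 0.0208 and 0.0143 in EGOT gapmer and control gapmer arrays, were far smaller than the difference of -0.18, whose 95% interval was -0.33 to -0.03. It did not pass (limma adjusted p = 0.124), but it did when the pooled spread could vary with signal level (limma adjusted p = 0.00438). In that setting 2513 of all 14812 genes passed, against 1245 as deposited. APOB was among the brightest genes, above at least 99.9% of probe sets on every array, where array signals compress differences. Of the 4 measured genes that edit APOB mRNA or bind its editing complex 0 passed (limma; 0 of 4 at an unadjusted p under 0.05), and A1CF, an RNA-binding cofactor of that editing, was at -0.09 (limma adjusted p = 0.453).

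APOE, APOH and APOM gave values that separated the groups upward without passing. APOE, the ligand through which remnant particles bind receptors, read 7.07, 7.13 and 7.13 with the EGOT gapmer, against 6.97, 6.87 and 6.98 with the control gapmer (difference 0.17, 95% interval 0.01 to 0.33, limma adjusted p = 0.184). APOH, a phospholipid-binding plasma glycoprotein known as beta-2-glycoprotein I, read 12.64, 12.74 and 12.67 with the EGOT gapmer, against 12.52, 12.50 and 12.51 with the control gapmer (difference 0.17, 95% interval 0.02 to 0.33, limma adjusted p = 0.157). The control gapmer arrays of APOH lay within 0.02 of each other. APOM, a lipocalin that carries sphingosine-1-phosphate on HDL, read 8.64, 8.45 and 8.61 with the EGOT gapmer, against 8.44, 8.34 and 8.30 with the control gapmer (difference 0.21, 95% interval 0.02 to 0.40, limma adjusted p = 0.171). EGOT gapmer replicate 2 and control gapmer replicate 1 were almost level in APOM. Its 6 other probe sets had identical values among themselves, and their difference was 0.22. When the pooled spread could vary with signal level, APOH (limma adjusted p = 0.00925) and APOM (limma adjusted p = 0.0481) passed and APOE did not. That setting passed 2513 of all 14812 genes, against 1245 as deposited. APOH was above about 99.9% of probe sets on every array, where array signals compress differences.

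APOA2 and APOF had overlapping groups. APOA2, the second protein of HDL, read 13.18, 13.23 and 13.20 with the EGOT gapmer, against 13.20, 13.12 and 13.18 with the control gapmer. The difference was 0.04 with a 95% interval of -0.12 to 0.19 (limma adjusted p = 0.790), and the gene was brighter than nearly all probe sets on every array. APOF, which inhibits lipid transfer between particles, read 4.96, 5.15 and 4.99 with the EGOT gapmer, against 5.10, 5.14 and 4.94 with the control gapmer. Its difference was -0.02 with a 95% interval of -0.23 to 0.18 (limma adjusted p = 0.898), and it was dim enough, above 45.7% to 50.2% of probe sets, that a change could be missed.

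Ratios between the 10 genes were also compared within arrays. For each of the 45 pairs the log2 ratio of the genes was formed on each array, and in 24 pairs the ratios of the EGOT gapmer arrays lay wholly on one side of those of the control gapmer arrays. Ratios that do not overlap always give the smallest two-sided exact permutation p of this design, 0.1, so that p adds nothing to the count. Adjusted over the 45 pairs the smallest p was 0.188, so no pair can pass in this design. The 24 are not separate results: they include every pair with APOA4 and every pair with APOB except that with APOA5. Among single genes over the whole array 31.7% separated in either direction, and the share over pairs of other genes was not computed. The log2 ratio of APOA1 to APOB shifted by 0.55 towards APOA1 (exact permutation p = 0.1), the gap between their single differences of 0.36 and -0.18, with APOB at the bright end of the array. The ratio of APOA1 to APOA4 shifted by -0.49 (exact permutation p = 0.1), and that of APOA1 to its neighbour APOC3 by 0.19 with overlapping groups (exact permutation p = 0.3). APOE and APOH had the most similar profiles over the 6 arrays, with a root mean square distance of 0.0388 after each gene was centred on its mean.

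By the same distance, the 3 protein-coding genes most like APOA4 over the 6 arrays were BUD31 (0.129), ZFP82 (0.155) and HEXIM1 (0.156), out of 11910. Those most like APOA1 were RNF19B (0.0262), KLHL12 (0.0273) and GSTT4 (0.0291).

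Around the apolipoproteins, genes of lipoprotein assembly and remodelling included members that rose and 0 that fell. Of 19 measured assembly and secretion genes 4 rose, and 18 had a difference above 0. Over all genes 5.2% rose and 57.8% were above 0. Of the 19, 0 were dimmer than the median of all probe sets, against 4487 of 14812 genes. With dim genes left out 7 of the 19 rose, against 1363 of 10325 genes. AADAC, a lipase of the endoplasmic reticulum, read 6.91, 6.87 and 6.86 with the EGOT gapmer, against 6.27, 6.29 and 6.15 with the control gapmer, a rise of 0.64 (limma adjusted p = 0.0097). TM6SF2, which helps load lipid onto APOB particles, and SAR1A, a coat GTPase of export vesicles, each rose by 0.36 (limma adjusted p = 0.0334 and 0.0462), and the lipid droplet protein gene PLIN2 by 0.33 (limma adjusted p = 0.0400). MTTP, the transfer protein that APOB requires, was level at 10.43, 10.47 and 10.45 with the EGOT gapmer, against 10.43, 10.43 and 10.47 with the control gapmer. The median of the assembly list was 0.183. Without EGOT gapmer replicate 2 the list had 1 rise, and with 1 array left out it had 0 to 1. It also had 1 rise with the span trend removed.

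Of 15 measured remodelling genes 3 rose, PLTP, PON1 and LCAT, where 5.2% of all genes rose. PLTP, the phospholipid transfer protein, read 9.88, 9.95 and 10.12 with the EGOT gapmer, against 9.27, 9.29 and 9.37 with the control gapmer, a rise of 0.67 (limma adjusted p = 0.0121). PON1, an HDL-bound esterase, rose by 0.52 (limma adjusted p = 0.0145) and LCAT by 0.33 (limma adjusted p = 0.0407). The remodelling list had a median of -0.0281, and 10 of its 15 genes were below 0. The LCAT call held in 6 of 17 alternatives, that of PON1 in 12 and that of PLTP in 13, and with 1 array left out the list had 0 to 2 rises. Of 16 measured receptor genes 1 rose, MYLIP, which encodes the ubiquitin ligase that degrades the LDL receptor, by 0.59 (limma adjusted p = 0.0145). That call held in 2 of the 6 fits with 1 array left out. The receptor list's median was -0.0389, and its share of rises is read against the same 5.2%. Of 10 other measured apolipoprotein and related genes 0 passed (limma; 1, APOOL, at an unadjusted p under 0.05), with APOC1, the neighbour of APOE, at 0.17 (limma adjusted p = 0.303).

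**Figure D4:**
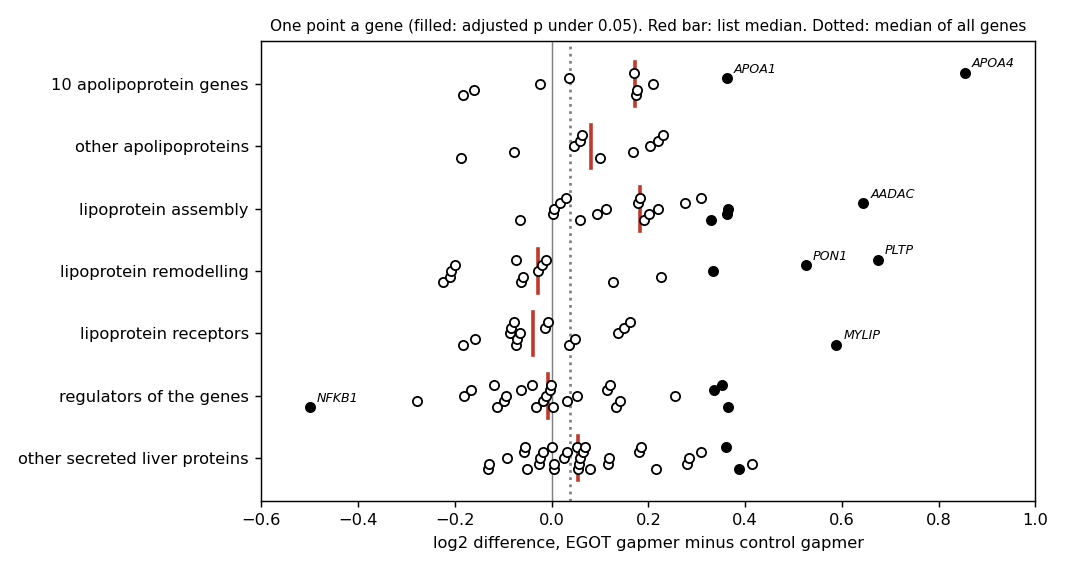
Log2 differences (horizontal axis, EGOT gapmer minus control gapmer) of single genes in the apolipoprotein set and 6 related lists. Filled points passed the limma threshold, and the red bars are list medians, highest in the assembly list at 0.183 and the 10 apolipoprotein genes at 0.172.

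Of 26 measured transcriptional regulators of these genes 3 rose and 1 fell, where 5.2% of all genes rose and 3.21% fell. MLX, a partner of the carbohydrate-response factor, rose by 0.37 (limma adjusted p = 0.0285), USF1, an upstream stimulatory factor gene, by 0.35 (limma adjusted p = 0.0281) and CREB3L3, a liver factor of the endoplasmic reticulum that activates apolipoprotein genes, by 0.34 (limma adjusted p = 0.0462). CREB3L3 read 10.46, 10.55 and 10.65 with the EGOT gapmer, against 10.29, 10.18 and 10.18 with the control gapmer. NFKB1, a subunit of the inflammatory factor NF-kB, fell by 0.50 (limma adjusted p = 0.0171). The regulator list had a median of -0.0076, and HNF4A was not analysed here. With 1 array left out the list had 0 to 1 rises and 0 to 1 falls, as CREB3L3 and MLX passed in 0 of 6 such fits, USF1 in 1 and NFKB1 in 2. With the span trend removed it had 0 rises and 1 fall.

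Of 32 measured genes of other secreted liver proteins 2 rose, HPX by 0.39 (limma adjusted p = 0.0212) and KNG1 by 0.36 (limma adjusted p = 0.0285), and 0 fell, where 5.2% of all genes rose. With 1 array left out 0 to 1 rose, KNG1 in 0 of 6 such fits. Their median was 0.0553, and whether this differs from the apolipoproteins was not tested. The albumin gene ALB was at -0.02 (limma adjusted p = 0.902).

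Some markers of other cell types rose, and most did not pass. Of 8 measured enterocyte markers 2 rose, the sucrase-isomaltase gene SI by 0.76 (limma adjusted p = 0.0130) and the villin gene VIL1 by 0.30 (limma adjusted p = 0.0362), where 5.2% of all genes rose. The others did not pass: ANPEP was at 0.16, LCT at 0.03, CDX1 and MTTP at 0.01, CDX2 at -0.11 and KRT20 at -0.29. Among the 8 markers 6 were above 0, and 3 (SI, VIL1 and ANPEP) separated the groups upward, as did 20.2% of all genes. The mean of the 8 was 6.83 to 6.95 with the EGOT gapmer and 6.76 to 6.79 with the control gapmer. Of 7 macrophage and leukocyte markers 2 rose, CD68 by 1.06 and LYZ by 0.57 (limma adjusted p = 0.00807 and 0.0171). The others did not pass: CD2 was at 0.34, CSF1R at 0.24, MARCO at 0.22, CD14 at -0.06 and CD163 at -0.32. Among the 7 markers 5 were above 0, with a median of 0.238, where 57.8% of all genes were above 0. The mean of the 7 was 6.22 to 6.45 with the EGOT gapmer and 5.89 to 6.08 with the control gapmer. With 1 array left out the enterocyte list had 0 to 1 rises and the leukocyte list 0 to 2. Of 4 endothelial and 3 stellate or fibroblast markers 0 passed (limma; 0 of 7 at an unadjusted p under 0.05). Their part in the apolipoprotein differences was not tested.

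**Figure D5:**
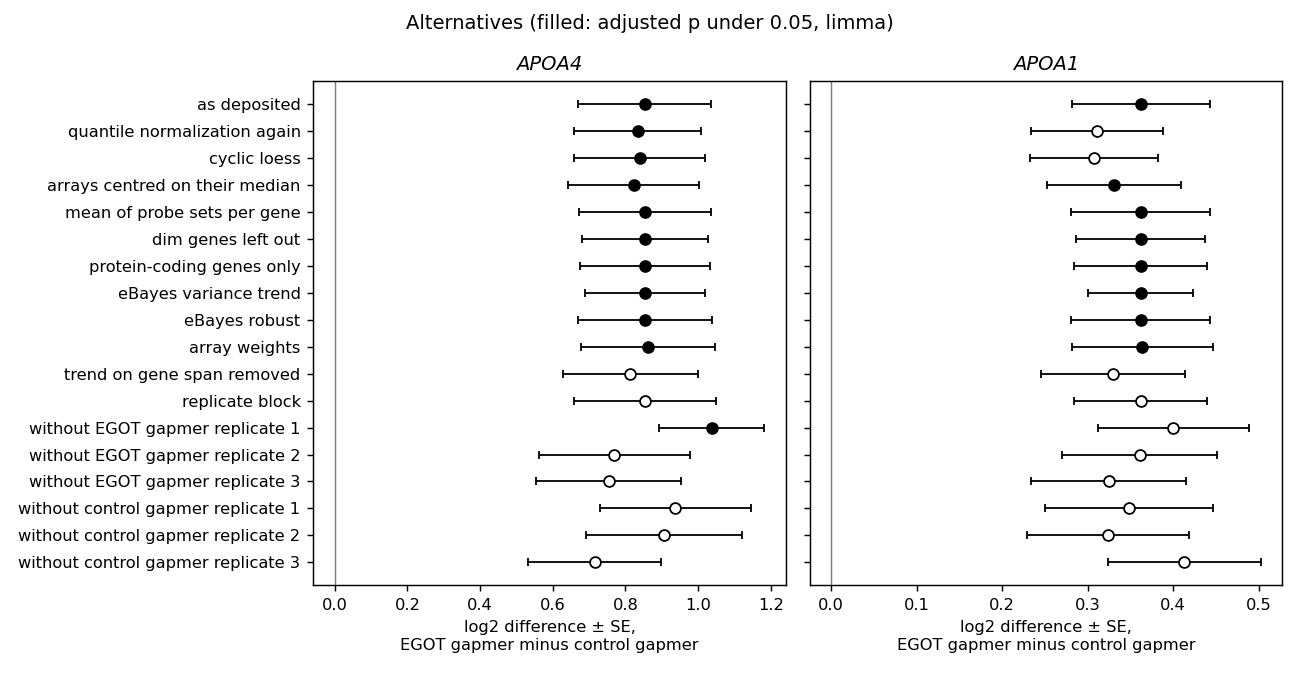
Log2 difference with its standard error (horizontal axes) of APOA4 and APOA1 as deposited and under 17 alternatives. Filled points have a limma adjusted p under 0.05, which held for APOA4 in 10 and for APOA1 in 7 of the 17, and every point lies above 0.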

How the data were processed

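Total RNA from 6 HuH7 samples was hybridised to an Affymetrix whole-transcript array. The deposited values are per probe set and on the log2 scale. Per the submitters' processing notes the authors used RMA, whose version and filters the sources used here do not name. RMA normalizes quantiles between arrays, although array medians over the deposited probe sets still ran from 5.08 to 5.23; a change in total RNA per cell was not measurable from such values. Of 44629 probe sets 15835 had 1 symbol in GEO's platform annotation. The EGOT gapmer and control gapmer groups were compared in R 4.3.3 using limma 3.58.1 (lmFit, eBayes, two-sided, Benjamini-Hochberg over 14812 genes, threshold 0.05), and single values by exact permutation over 20 assignments. The fit was run on simulated data with planted changes and independent noise. Those data hold no array effects or span trend, so the run does not bear on how stable the calls here are. The precision is limited by 3 arrays per group. The members and lists were chosen with earlier results of these data known. Named genes are the 10 members, EGOT and the 3 genes nearest each member that passed. Also named are list members that passed (up to 4 a list) or otherwise those of smallest p. MTTP, ALB, A1CF, HNF4A, APOC1, APOOL, KRT20, CDX1, CDX2, LCT, ANPEP, CD163, CD14, CD2, CSF1R and MARCO were named after their values were seen. Alternatives covered normalization, probe set choice, genes tested, variance model, array weights, gene span, replicate number and each array left out. The labels do not say whether replicate numbers pair the arrays. Deviations of same-numbered arrays were close to uncorrelated, at -0.0307, -0.054 and 0.0394. Promoter sequences and gene order are RefSeq's (GRCh38.p14); the build of the array is not given.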

Additional observations from a re-analysis of the deposited data

How the results depend on the processing

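The count of apolipoprotein genes past the threshold, 2, was 1 (APOA4) after a second quantile normalization or cyclic loess, 5 with a variance trend, and 0 with the span trend removed or with replicate number as a block (limma; 3 of 10 at an unadjusted p under 0.05 in each of the last pair). With 1 array left out it was 0 to 1 (2 to 5 at an unadjusted p under 0.05). The count over all genes, 1245, was 2113 without dim genes, 2513 with a variance trend, 642 with the span trend removed, 0 with the replicate block (3438 at an unadjusted p under 0.05), and 9 to 579 with 1 array left out. The block leaves fewer degrees of freedom, and the numbers are not known to pair arrays; with it EGOT was at a limma adjusted p of 0.0543, APOA4 at 0.0929 and APOA1 at 0.0852. APOA4 stayed between 0.72 and 1.04 and APOA1 between 0.31 and 0.41 in all 17 alternatives. For the 8 other genes 130 of 135 values kept direction and side of the threshold. With 1 array left out APOF lay between -0.0851 and 0.0154, turning to 0.0099 without EGOT gapmer replicate 1 and to 0.0154 without control gapmer replicate 2; the cause was not tested. Of all calls 61.8% were higher as deposited, 50.2% after quantile normalization, 48.8% after cyclic loess and 52.6% after centring on medians. The share was 44.2% to 67.2% of 156 to 579 calls with 1 EGOT gapmer array left out. It was 22.2% to 38.2% of only 9 to 58 calls with 1 control gapmer array left out. Dim signal limits APOF and APOA4, and 3 arrays per group limit every value.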

Other observations

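Of 3 measured genes of the adipocyte list 1 rose and 1 fell, where 5.2% of all genes rose and 3.21% fell. Neither call was stable. CIDEC, a lipid droplet protein gene, read 4.74, 4.96 and 4.86 with the EGOT gapmer, against 4.56, 4.33 and 4.44 with the control gapmer, a rise of 0.41 (limma adjusted p = 0.0440). LEP, the leptin gene, read 5.16, 4.69 and 4.61 with the EGOT gapmer, against 5.55, 5.55 and 5.33 with the control gapmer, a fall of 0.66 on the log2 scale (a log2 difference of -0.66, limma adjusted p = 0.0445). Both were close to or below the median of the arrays. PLIN1, the third measured gene of that list, was at 0.13 (limma adjusted p = 0.727). The CIDEC call held in 7 of 16 alternatives and in 0 of 6 fits with 1 array left out, and that of LEP in 10 of 17 and 1 of 6. Of 10 measured hepatocyte markers 1 rose and 0 fell, where 5.2% of all genes rose and 3.21% fell. The 1 was TAT, the liver tyrosine aminotransferase gene, which rose by 0.59 (limma adjusted p = 0.0165). TAT passed in 2 of 6 fits with 1 array left out. The median of the 10 was 0.00522, with 6 above 0 and 4 below.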
